A study of Rattus norvegicus with 12 samples.

Results

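The genes described here are Tgfb1, Col1a1 and Mmp9, a signalling factor, a matrix component and a matrix protease that are followed in most studies of lung fibrosis. They were chosen by name, as every array probe assigned to them in a shortened copy of the study's list of differentially expressed genes. This gave 3 probes, 1 for each gene, among 1097 genes for which the arrays could be given a name. Further probes of the 3 genes could not be identified. The study asked how instilled silica alters gene expression in the rat lung. Lung RNA of male Wistar rats was hybridized to 12 single-colour Agilent arrays, in 4 groups of 3 arrays. In the model groups, 1 mL of silicon dioxide at 50 mg/mL had been instilled into the trachea, and in the control groups 1 mL of saline. The titles of the arrays instead give 50 mg/kg, which is not the same dose, and the sources used here do not settle which is right. Tissue was labelled as day 28 or day 14 after instillation, and ages are not given in the sources used here. For the arrays titled 14 d the protocol text still says 28 days and the paper describes day 28 alone, so they are called day 14 here by their titles. The lungs of day 28 were picked on histology, and they stand for affected lungs rather than for a random draw. Silica was instilled as a suspension and not inhaled as dust. Whether the arrays of day 14 came from separate rats is not stated, so p-values measure the spread between arrays.

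Tgfb1 encodes transforming growth factor beta 1, which is secreted bound to a latency peptide and is set free by integrins and proteases. The free factor binds receptor kinases that activate Smad proteins, and fibroblasts respond by making matrix. Col1a1 encodes the alpha 1 chain of type I collagen, the main fibre of scar tissue and of the fibrous silicotic nodule. Mmp9 encodes gelatinase B, a zinc protease that macrophages and neutrophils secrete as a proenzyme and that cleaves gelatin and basement membrane collagen.

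Every level given for a gene is the brightness of its probe, so the probes are shown as the array files list them. Each is 60 bases long, is printed as 1 spot per array and shares no run of 16 bases, on either strand, with any other probe of the array. All of the Tgfb1 and Mmp9 probes is given, and for Col1a1 the first 30 bases.
Tgfb1, probe A_42_P522899, chromosome 1: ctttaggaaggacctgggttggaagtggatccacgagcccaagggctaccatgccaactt
Col1a1, probe A_64_P040278, chromosome 10: gtgggaggaagcaagagactctgtacctat
Mmp9, probe A_44_P501112, chromosome 3: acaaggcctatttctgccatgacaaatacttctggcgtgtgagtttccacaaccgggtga
The GC content of the whole probe was 55% for Tgfb1, 35% for Col1a1 and 48.3% for Mmp9. The accessions of all 3 genes were found under the same symbols in RefSeq (assembly GRCr8). No genome build is named for the array's positions, so only chromosomes are given. Levels of the 3 genes were compared between groups for 1 probe at a time, never between probes.

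All 3 probes were well above background on 12 of 12 arrays. The arrays lay on 2 slides. The 3 model arrays of day 28 and control replicate 1 of that day were on slide 1. The remaining 8 arrays, with all those of day 14, were on slide 2. Between 60.5% and 63.3% of probes were well above background on the arrays of slide 1 and between 64.6% and 69.5% on those of slide 2. A model group of day 28 and a model group of day 14 therefore differ in slide as well as in time, and the share of each cannot be told apart. The model and control groups of day 28 also differ in slide in part, since control replicates 2 and 3 were on slide 2. The lung label could be checked against 1 of 8 markers with a named probe. This was Aqp5, the water channel of alveolar type I cells, and its signal cleared background on each of the 12 arrays.

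Each of 34097 probes was compared between groups in a limma fit over all 12 arrays. It was called upregulated or downregulated where the change reached 2-fold and p, adjusted by the method of Benjamini and Hochberg, did not exceed 0.05. At day 28, 4.75% of the probes tested were called higher and 5% lower in the model group. At day 14, 2.87% were called higher and 2.78% lower. The list that names the 3 probes holds probes the authors called on the arrays of day 28, so at day 28 the direction of a member is not independent evidence. The arrays of day 14 had no part in that choice.

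Tgfb1 was upregulated at day 28, and at day 14 its difference was smaller than 2-fold. On the log2 scale of normalized signal, the 3 control arrays of day 28 read 9.19, 9.23 and 9.06 and the 3 model arrays 10.45, 10.44 and 10.49. The lowest model array was 1.21 above the highest control array. The group means were 9.16 ± 0.08 (SD, n = 3) in the control group and 10.46 ± 0.03 (SD, n = 3) in the model group. This was the tightest model group of the 3 genes. The log2 fold change was 1.30 (standard error 0.17, 95% interval 0.93 to 1.68), a 2.47-fold rise with an adjusted p of 5e-04 from limma. Within slide 1 the model arrays were 1.28 above control replicate 1, and they were 1.32 above the control arrays of slide 2.

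At day 14 the control arrays read 9.28, 8.77 and 9.21 for Tgfb1 and the model arrays 10.22, 9.62 and 9.91. The groups did not overlap, with a gap of 0.34, but both were more spread than at day 28. Their means were 9.09 ± 0.27 and 9.92 ± 0.30 (SD, n = 3 each). The log2 fold change was 0.83 (standard error 0.17, 95% interval 0.46 to 1.20), or 1.78-fold. Its adjusted p of 0.010 from limma passed the threshold, while the fold change missed the minimum, so Tgfb1 was not called at day 14. The control groups of the 2 days overlapped. The model arrays of day 28 all lay above those of day 14, across a difference in slide.

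Col1a1 was upregulated at day 28 with a wide spread, and at day 14 it did not pass the test. The control arrays of day 28 read 7.85, 9.37 and 8.65 and the model arrays 10.65, 9.95 and 9.68. The highest control array came within 0.31 of the lowest model array. The means were 8.63 ± 0.76 and 10.09 ± 0.50 (SD, n = 3 each). The log2 fold change was 1.47 (standard error 0.39, 95% interval 0.60 to 2.34), a 2.76-fold rise with an adjusted p of 0.019 from limma.

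The low control value of Col1a1 was that of replicate 1, the control array that shared slide 1 with the model arrays, and it was 1.16 below the mean of the other 2 control arrays. Within slide 1 the model arrays were 2.24 above this array. Against the control arrays of slide 2 they were 1.08 higher. A fit with slide as a block gave 2.24 (adjusted p = 0.017 from limma), which rests on that control array. Without it the log2 fold change was 1.08 and the call was lost (adjusted p = 0.055). The call was also lost without control replicate 3 (1.48, adjusted p = 0.052) and without model replicate 1 (1.19, adjusted p = 0.076). In the methods' t-test the unadjusted p was 0.049, and 0.14 after Benjamini-Hochberg.

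At day 14 the control arrays of Col1a1 lay close together, at 9.30, 9.14 and 9.29, and the model arrays read 10.52, 9.62 and 9.36. The ranges were separated by 0.05. The means were 9.24 ± 0.09 and 9.83 ± 0.61 (SD, n = 3 each). Most of the distance between them came from model replicate 1, which was 1.27 above the control mean, while replicates 2 and 3 were 0.38 and 0.11 above it. The log2 fold change was 0.59 (standard error 0.39, 95% interval -0.28 to 1.46, adjusted p = 0.36 from limma), and without model replicate 1 it was 0.25. The interval includes no change and also the 2-fold minimum. The model groups of both days overlapped, as did the control groups of both days.

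Mmp9 showed the largest difference of the 3 genes at both days. At day 28 the control arrays read 5.18, 6.68 and 5.83 and the model arrays 8.79, 8.66 and 9.35. Every model array was at least 1.98 above every control array. The means were 5.90 ± 0.75 and 8.93 ± 0.37 (SD, n = 3 each). The log2 fold change was 3.04 (standard error 0.56, 95% interval 1.80 to 4.27), an 8.20-fold rise with an adjusted p of 0.0032 from limma. With normexp background correction in place of the processed signal it was 2.10. Normexp was run with an offset of 50, which lowers the log2 fold changes of dim probes. A larger log2 fold change than that of Mmp9 was found for 0.352% of the probes tested. Control replicate 1 was again low, 1.08 below the mean of the other 2 control arrays. Within slide 1 the model arrays were 3.75 above it, and they were 2.68 above the control arrays of slide 2.

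At day 14 Mmp9 was upregulated, with the widest spread of any group. The control arrays read 5.57, 4.15 and 5.40 and the model arrays 8.16, 5.98 and 6.82. The lowest model array was 0.40 above the highest control array. The means were 5.04 ± 0.77 and 6.98 ± 1.10 (SD, n = 3 each). The log2 fold change was 1.94 (standard error 0.56, 95% interval 0.71 to 3.18), a 3.84-fold rise with an adjusted p of 0.040 from limma.

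This call for Mmp9 was close to the threshold. It was lost without any 1 of the 3 control arrays of day 14 (1.51 to 2.20, adjusted p 0.060 to 0.14), and without model replicate 1 (1.36, adjusted p = 0.14) or model replicate 3 (2.03, adjusted p = 0.075) of that day. It was also lost when control replicate 3 or model replicate 1 or 2 of day 28 was left out, with the log2 fold change at 1.93 to 1.94 and adjusted p between 0.052 and 0.057. When the arrays of day 14 were normalized and fitted alone, Mmp9 differed by 1.92 on the log2 scale (adjusted p = 0.081). With normexp background correction in place of the processed signal it was 1.03, and past both thresholds (adjusted p = 0.044). The direction was upward in all 12 fits that left out an array, which says little, since the model and control arrays did not overlap. The model range of day 14 overlapped the control range of day 28, and the control groups of both days overlapped.

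**Figure D1:**
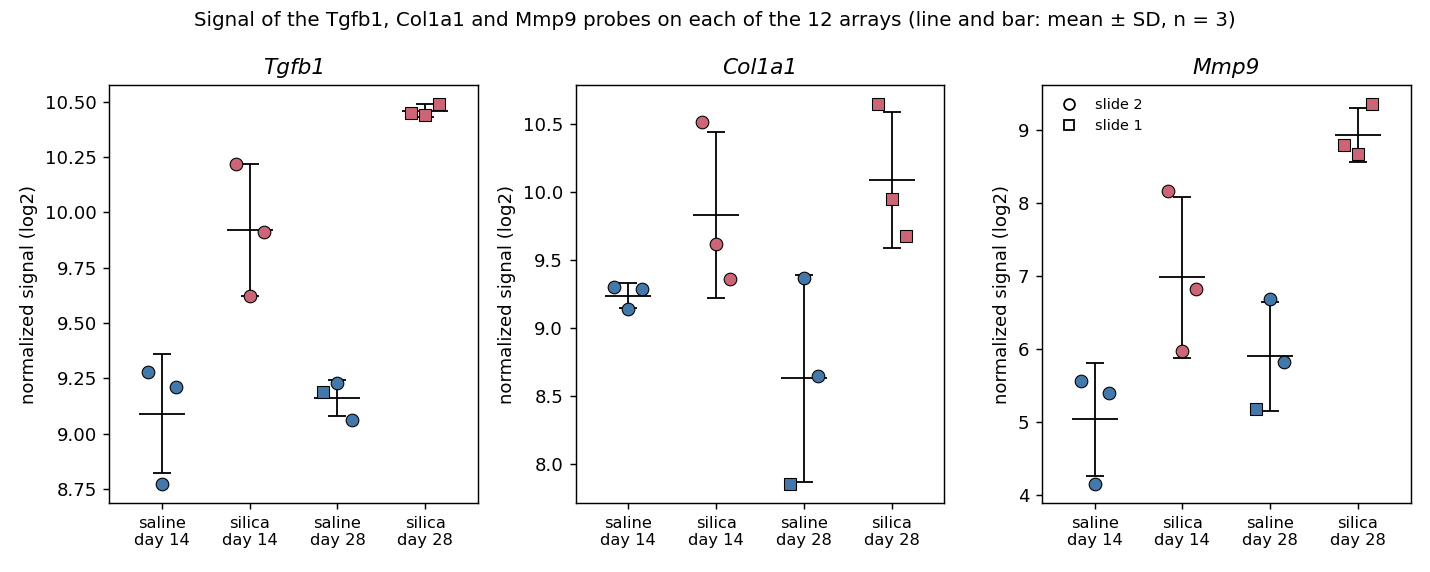
Normalized log2 signal of the Tgfb1, Col1a1 and Mmp9 probes on each of the 12 arrays, by group, with squares for slide 1, circles for slide 2 and lines for the mean ± SD (n = 3). The model points lie above the control points of the same day in every panel, by as little as 0.05 for Col1a1 at day 14, and the square control point is the lowest control point of day 28 for Col1a1 and Mmp9.

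For all 3 genes the model arrays lay above the control arrays at both days, without overlap. The same held for 22.6% of all probes tested at day 28 and for 15.3% at day 14. At day 14, 1 of the 3 members was called higher. Of the 676 named probes that were higher in the model group at day 28, 50.4% were called higher at day 14. At that day 4.89% of the probes tested had a larger log2 fold change than Tgfb1, 8.58% than Col1a1 and 0.695% than Mmp9.

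The silica effect was nominally larger at day 28 than at day 14 for each of the 3 genes, but none of these differences passed the test of the interaction of silica and day. The 3 probes were named from a list of changes on the arrays of day 28, and that choice favours a larger effect at that day. The day 28 effect exceeded that of day 14 by 0.47 on the log2 scale for Tgfb1 (95% interval -0.05 to 1.00, adjusted p = 0.55 from limma). For Col1a1 it was larger by 0.88 (95% interval -0.35 to 2.11, adjusted p = 0.63). The control mean of Col1a1 was 8.63 at day 28 and 9.24 at day 14. This was a wider step than between its model means of 10.09 and 9.83. For Mmp9 the day 28 effect was larger by 1.09 (95% interval -0.65 to 2.84, adjusted p = 0.68). Each interval includes 0 and so extends to a smaller effect at day 28 than at day 14, for Tgfb1 down to -0.05. The fit with slide as a block, which rests on control replicate 1 of day 28, gave 0.45 for Tgfb1, 1.65 for Col1a1 and 1.81 for Mmp9 (adjusted p 0.69, 0.43 and 0.59 from limma). With each array left out in turn the difference ran from 0.32 to 0.63 for Tgfb1, from 0.49 (without control replicate 1 of day 28) to 1.25 for Col1a1 and from 0.59 (without model replicate 2 of day 14) to 1.68 (without model replicate 1 of day 14) for Mmp9. Over all probes, 0% were called for the interaction by limma, and 3387 probes (9.93%) had an unadjusted p under 0.05. Without control replicate 1 of day 28, the array of slide 1, 265 probes were called for it, and without model replicate 1 of day 14, 21 probes. In 6 other fits between 1 and 4 probes were called. None of the 3 genes was among the called probes in any of these fits (adjusted p 0.45, 0.72 and 0.75 without that array).

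**Figure D2:**
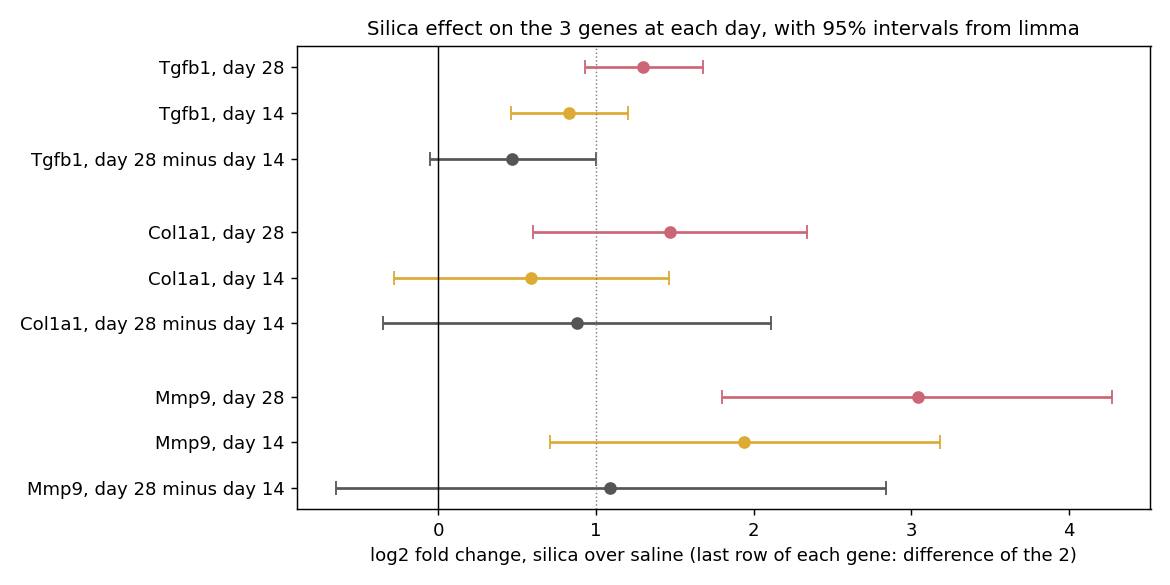
Log2 fold change of silica over saline at day 28 and at day 14, and their difference, for Tgfb1, Col1a1 and Mmp9, with 95% intervals from limma and a dotted line at 2-fold. The intervals of the difference include 0 for each gene, and at day 14 the interval of Col1a1 includes 0 as well.

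Within a group the 3 genes partly deviated together. Model replicate 1 of day 14 was the highest of its group for Tgfb1, Col1a1 and Mmp9, at 1.14, 1.27 and 3.12 above the control mean. Model replicate 2 was lowest for Tgfb1 and Mmp9, at 0.53 and 0.93. At day 28 the order differed by gene, with replicate 1 highest for Col1a1 (2.02 above the control mean) and replicate 3 highest for Tgfb1 (1.34) and Mmp9 (3.45). Over the 12 arrays Pearson's r was 0.95 between Tgfb1 and Mmp9, 0.73 between Tgfb1 and Col1a1 and 0.71 between Col1a1 and Mmp9. After each group mean was removed r was 0.87, 0.37 and 0.62. These coefficients describe 12 arrays that share groups, slides and a normalization, and they carry no p.

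The named probes of other genes whose signal followed each member most closely over the 12 arrays were found among 1273 named probes. For Tgfb1 they were Laptm5, a lysosomal membrane protein of blood cells, Neu1, a lysosomal sialidase, and Spi1, the transcription factor PU.1 of myeloid cells. Each had a Pearson's r of 0.99 with Tgfb1, and 0.93, 0.90 and 0.83 after group means were removed. Laptm5 was 1.25 higher at day 28 and 0.90 at day 14 on the log2 scale, close to the values of Tgfb1. For Col1a1 they were Camk1d, a calmodulin-dependent kinase (r = 0.96), Trim59, a tripartite motif protein (0.94), and Vcan, the matrix proteoglycan versican (0.94). Their r was 0.92, 0.91 and 0.85 after group means were removed. This Vcan probe was 2.56 higher at day 28, and 0.77 at day 14 (adjusted p = 0.38 from limma). For Mmp9 they were Cuedc2 (r = 0.97), the ectonucleotidase Entpd2 (0.96) and Cdca8, a subunit of the chromosomal passenger complex (0.96), or 0.79, 0.81 and 0.75 after group means were removed. All named probes were selected by the authors for a change at day 28, so a high r over both treatments is not independent evidence of a shared pattern.

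Probes for other genes of the TGF-beta pathway, the matrix and its proteases were sought with lists of 133 genes besides the 3 members. A named probe existed for 19 of them, and at day 28, the day on which the naming list was chosen, 11 were called higher and 8 lower. At day 14, 7 of the 19 were called higher, 2 lower and 10 neither. All 7 were among the 11 higher at day 28, and this share is to be read beside the 50.4% for all named probes that were higher at day 28. For the 2 called lower no matching share of named probes was computed. Among the genes not analysed here for want of a named probe were Tgfb2, Tgfb3, Tgfbr2, Smad3, Smad7, Ccn2, Col1a2, Col3a1, Mmp2, Mmp8 and Mmp12.

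Upstream of TGF-beta signalling, Tgfb1 stood beside Itgb8 and Plau among 3 of 16 genes for ligands and their activation. All 3 were named from the list of changes at day 28, so their direction on that day was fixed by the choice. Itgb8, the beta 8 integrin subunit that frees latent TGF-beta, rose by 1.99 at day 28 and by 2.15 at day 14 (adjusted p = 1.2e-04 from limma), from a mean of 4.71 ± 0.11 to 6.86 ± 0.32 (SD, n = 3 each) at day 14. Plau, the urokinase that generates plasmin, rose by 1.30 and 1.10 (adjusted p = 0.0055 at day 14). With normexp, whose offset lowers the log2 fold changes of dim probes, Itgb8 was 0.96 and 0.99 higher, under 2-fold at both days. At day 14 Itgb8 and Plau were called in the limma fit while Tgfb1, at 0.83, was not.

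Among receptors and Smads, 3 of 17 genes had a named probe. Tgfbr1, the type I receptor kinase, rose by 1.72 at day 28 and by 1.65 at day 14 (adjusted p = 2.9e-04 from limma). Tgfbr3, the coreceptor betaglycan, fell by 1.53 and by 1.11 (adjusted p = 0.0041 at day 14). Smad6, an inhibitory Smad, fell by 2.23 at day 28, and at day 14 its log2 fold change was -1.75 (adjusted p = 0.055). Of genes that TGF-beta is known to induce, 2 of 15 could be named and they moved in opposite directions at day 28. Fn1, fibronectin, rose by 1.34 and Tagln, an actin-binding protein of smooth muscle and myofibroblasts, fell by 1.12. At day 14 neither was called, at 0.77 and -0.76.

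Col1a1 was the only one of 20 collagens with a named probe, and none of 22 genes for collagen processing and cross-linking had one. Of 19 other matrix genes 4 had a probe. Vcan rose by 2.43 at day 28 and by 1.10 at day 14 (adjusted p = 0.015 from limma) on its brightest probe. Its other named probe was 2.56 higher at day 28, but at day 14 it was 0.77 higher and not called (adjusted p = 0.38 from limma). Lum, the collagen-binding proteoglycan lumican, rose by 1.44 at day 28, and at day 14 its model and control arrays overlapped (0.45, adjusted p = 0.58). The elastic fibre genes Fbln5 and Mfap4 fell by 1.07 and 1.01 at day 28, and were at -0.43 and -0.85 at day 14, short of 2-fold. For Col1a1, Vcan and Lum alike the day 28 value was the larger, but the interaction was not called for any of them. Naming probes from changes at day 28 favours that order. For Col1a1 the control means differed more between the days than the model means did.

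Of 19 matrix metalloproteinases 4 had a named probe, and at day 14 Mmp9, Mmp14 and Mmp19 were called higher. Mmp14, a membrane-bound collagenase that activates other metalloproteinases, rose by 1.89 at day 28 and by 1.52 at day 14 (adjusted p = 3.6e-04 from limma). Mmp19 rose by 1.22 and 1.07. Mmp28 fell by 1.32 at day 28, and at day 14 the groups overlapped (-0.27). Mmp9 had a larger log2 fold change than these at both days, and so was its standard error of 0.56, against 0.16 for Mmp14. With normexp the order turned at day 14, with 1.03 for Mmp9 and 1.24 for Mmp14. Since the normexp offset weighs most on probes with low signal, this order is not settled.

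Among inhibitors and partners of metalloproteinases, 5 of 8 genes had a named probe. Lcn2, lipocalin 2, which neutrophils store and which forms a complex with the Mmp9 protein, rose by 4.32 at day 28 and by 4.30 at day 14 (adjusted p = 6.5e-05 from limma). Timp1, an inhibitor that binds Mmp9 and its proenzyme, rose by 1.87 at day 28, from 9.86 ± 0.22 to 11.73 ± 0.24 (SD, n = 3 each), and was 0.79 higher at day 14 (adjusted p = 0.015, under 2-fold). Reck, a membrane-anchored inhibitor, fell by 1.27 and 1.19. Timp3, the inhibitor that is bound to matrix, fell by 1.25 at day 28 and was at -0.75 at day 14. Cd44, a hyaluronan receptor that tethers Mmp9 to the cell surface, rose by 1.16 at day 28 and was 0.85 higher at day 14, under 2-fold.

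**Figure D3:**
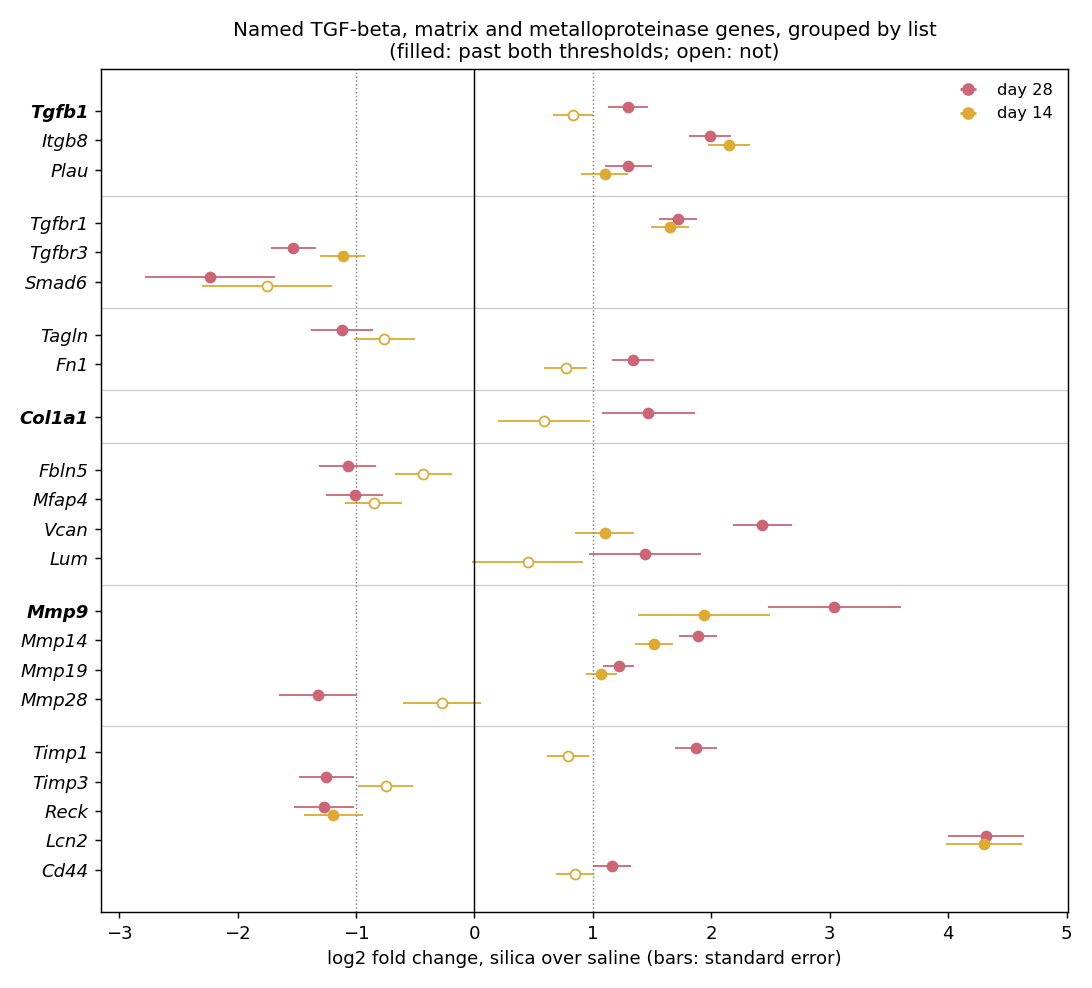
Log2 fold change of silica over saline at day 28 and day 14 for Tgfb1, Col1a1, Mmp9 and the 19 other genes of the lists with a named probe, grouped by list, with standard errors and with dotted lines at 2-fold. All 22 points of day 28 are filled, as probes were named from a list of changes at day 28, and at day 14 Mmp9 is filled while Tgfb1 and Col1a1 are open.

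Some of these calls depended on the processing. At day 28, Smad6, Tagln, Lum, Mmp28 and Reck were not called with slide as a block. Itgb8, Mfap4, Mmp19 and Cd44 were not called with normexp, at log2 fold changes of 0.96, -0.95, 0.86 and 0.86. With scaling to the 75th percentile Fbln5 and Mfap4 were not called, at -0.95 and -0.77, and with the 6 arrays of the day alone Mfap4 was not, at -0.99. With normexp, Itgb8, Plau, Tgfbr3, Vcan and Mmp19 were not called at day 14, at log2 fold changes of 0.99, 1.00, -0.99, 0.66 and 0.74 in that order, while Smad6 was called.

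Markers of other cell types could be named from the same list alone, so each named marker was called at day 28 by that choice, and at day 14 the share of 50.4% for named probes applies to those that were higher. Of 10 macrophage markers, 4 had a named probe (Cd68, Gpnmb, Trem2 and Msr1), and all 4 were called higher at both days. Signal above background was recorded for Msr1 on 7 of the 12 arrays and for the others on all 12. Msr1 was dim in the control groups, with means of 3.11 at day 28 and 2.93 at day 14. Its log2 fold changes of 3.61 and 3.06 are measured against that low signal, so their size is uncertain. The calls of Cd68, Gpnmb and Trem2 do not share this limit. The log2 of the summed signal of the 4 markers was 10.76 to 10.95 in the control and 14.50 to 14.70 in the model group at day 28. At day 14 it was 10.27 to 11.06 and 13.85 to 14.47. In the model group of day 28 the brightest of these 4 was Gpnmb, at a mean of 14.03, so the sum leans on that gene. Of 11 neutrophil markers Lcn2 alone had a named probe, and 1 gene does not tell the amount of a cell type. The log2 signal of Lcn2 was 11.25 to 12.27 in the control and 15.94 to 16.17 in the model group at day 28. At day 14 it was 10.97 to 11.53 and 15.04 to 16.28.

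Of 9 fibroblast markers Lum was the only one with a probe, and the same limit applies. It read 7.35 to 8.0 and 8.82 to 9.47 at day 28, and 7.19 to 7.35 and 6.83 to 9.12 at day 14. The summed signal of 5 of 7 endothelial markers was 14.83 to 14.99 in the control and 12.94 to 13.80 in the model group at day 28. At day 14 it was 14.38 to 14.69 and 12.79 to 13.78. The brightest of these 5 was Cdh5, at a mean of 14.28 in the control group of day 28. Aqp5 read 12.64 to 12.88 and 10.84 to 11.89 at day 28, and 12.05 to 12.65 and 10.58 to 11.92 at day 14. No marker of heart or skeletal muscle had a named probe.

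Model replicate 1 of day 14, the highest of its group for all 3 genes, was also highest in the macrophage markers (14.47) and in Lum (9.12). It was lowest in Lcn2 (15.04), in the endothelial markers (12.79) and in Aqp5 (10.58). In whole lung RNA, more cells of a type and more RNA per cell cannot be told apart, and the part of cell makeup in the levels of Tgfb1, Col1a1 and Mmp9 was not tested.

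**Figure D4:**
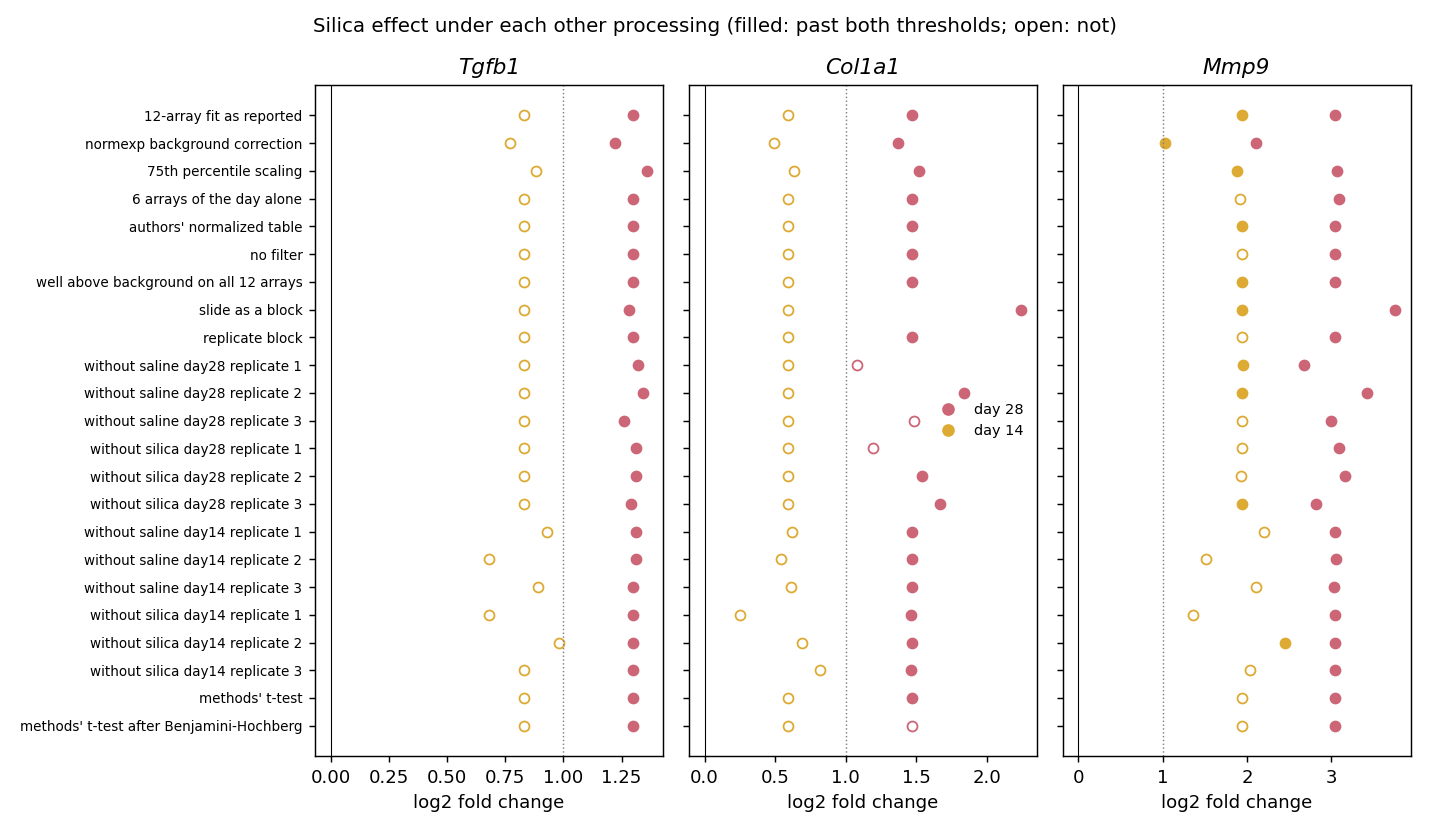
Log2 fold change of silica over saline for Tgfb1, Col1a1 and Mmp9 at day 28 and day 14 under each other processing and with each of the 12 arrays left out, with filled points past both thresholds of that fit and a dotted line at 2-fold. All points lie above 0, the day 28 points of Tgfb1 and Mmp9 are filled throughout, and those of Mmp9 at day 14 change between filled and open.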

How the data were processed

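Per the labels and the authors' methods, Cy3-labelled lung cRNA was read with Agilent Feature Extraction 10.7.1.1. The authors deposited each array's processed intensity for 62972 spots, corrected for background but not normalized between arrays, with flags for spots well above background. They also deposited a table of quantile normalized log2 signals, used as an alternative (median difference 0.00021, largest 1.20).

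Control spots (1439 per array) and spots with an outlier flag were removed, the rest were averaged by probe (51255), and log2 processed signals were quantile normalized over 12 arrays. A probe was tested where some group had it well above background on each of its 3 arrays (34097 probes). Groups, taken from sample titles, were compared with limma 3.58.1 in R 4.3.3, as a 4-group fit with Benjamini-Hochberg adjustment. The call for the interaction needed the adjusted p alone. The smallest p that 3 arrays against 3 allow in an exact two-sided permutation test is 0.10. No probe was saturated.

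Gene names came from 1275 probes of a shortened copy of the study's supplementary list. Other probes of the 3 genes, and their proteins, were not analysed here. The members, lists and tests were chosen with earlier results of these data known. Other genes were named by rule: in each list and at each day the 2 called genes that rose most and the 2 that fell most, a set of pathway genes whatever their values, and the 3 probes most correlated with each member. Further list genes were chosen after their values were seen. A gene that is no member is represented by its brightest probe.

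The fit was tested on simulated data. Alternatives were other background correction, scaling, filters, fits and tests, the slide or replicate number as a block, and each array left out. Normexp background correction added an offset of 50 to every signal, and the median processed intensity of the arrays was 36.4 to 52.3. This offset lowers the log2 fold changes of dim probes. Plots used matplotlib 3.10.9.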

Additional observations from a re-analysis of the deposited data

How the results depend on the processing

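In no alternative did a member change direction. For the silica effects this says little, since the model and control arrays of each gene did not overlap at either day. The settings are not independent of each other. The authors' normalized table holds nearly the same values, and the slide block cannot move an effect at day 14, with all its arrays on slide 2. At day 28 the calls also follow in part from the choice of probes. Tgfb1 and Mmp9 at day 28 kept their calls in all 10 other settings (1.22 to 1.36 and 2.10 to 3.75) and in all 12 fits without an array (1.26 to 1.34 and 2.68 to 3.42). Col1a1 at day 28 kept its call in 9 of 10 settings, the exception being the methods' t-test after Benjamini-Hochberg (1.47, adjusted p = 0.14), and in 9 of 12 fits without an array (1.08 to 1.84). Mmp9 at day 14 kept its call in 5 of 10 settings. It was lost in limma with the 6 arrays of the day alone (1.92), with no filter on dim probes (1.94, adjusted p = 0.080), with the replicate block (1.94, adjusted p = 0.055) and in the methods' t-test with and without adjustment (1.94), and it was kept in 4 of 12 fits without an array (1.36 to 2.45). Tgfb1 (0.68 to 0.98) and Col1a1 (0.25 to 0.82) at day 14 were called in none of these, and the interaction of no member was called in the 7 settings and 12 fits in which it was run.

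Over all probes, 3322 were called at day 28 and 1926 at day 14. With normexp the counts were 1314 (60.4% of them higher, against 48.7%) and 734 (61.2%, against 50.8%), and 3 in place of 7 other list genes were higher at day 14. With slide as a block 2607 were called at day 28, 64.7% of them higher, and 4 in place of 8 other list genes were lower. Of these 2607 probes, 1899 were also among the 3322 called without the block. The methods' t-test after Benjamini-Hochberg called 2096 and 1. Leaving out an array gave 1125 to 2591 calls at day 14, the extremes being without model replicate 1 and without model replicate 2 of that day, and 0 to 265 for the interaction, the 265 without control replicate 1 of day 28. The interaction called 1 probe with normexp, 1 without the filter, 1 with probes well above background on all 12 arrays and 4 with slide as a block. Same-numbered arrays of different groups did not deviate together (median r = -0.01 over 18 pairs), so the numbers were not taken as pairs, and the replicate block called 3304 and 1950. Fits of other probes of the 3 genes were not run, since no table at hand pairs further probes with them.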
